A study of Mus musculus with 193 samples.

Results

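Wild-type (WT) mouse testis cells of postnatal day 3 (P3) were divided by how much mitotic RNA they held. Each cell received a score, the mean of log2(RPM + 1) over 7 genes that act in the G2 phase or in mitosis: Top2a, Mki67, Cdk1, Ccnb1, Ccna2, Bub1 and Cenpe (RPM, reads scaled to the sequencing total of the cell). Of 193 cells in the series, 71 were WT P3 cells, and 35 of them lay above the median score of 4.68. The other 36 made up the lower-scoring group, which holds the median cell itself. All 71 came from testes of wild-type mice and had been sorted as positive for an Id4-eGFP reporter, which marks cells that use Id4, a gene of spermatogonial stem cells. The labels name no animal and do not say how the reporter was built or where the sort gate lay. Sample titles carry the letters A and B, which the labels do not explain: 16 cells were in set A (5 upper-scoring, 11 lower-scoring) and 55 in set B (30 and 25). The other cells of the series were 53 WT cells of postnatal day 7 (P7) and 69 P3 cells labelled as Rhox10 knockout (KO), both sorted with the same reporter.

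Around birth, male germ cells of the mouse rest as prospermatogonia, and in the first days after birth they take up mitosis again and give rise to spermatogonia. A dividing cell makes its RNAs in waves. Genes for DNA replication are switched on by E2F factors as the cell enters S phase, and genes for the spindle, the kinetochore and cytokinesis follow towards G2 and mitosis. The later wave depends on the MuvB complex with B-MYB and FOXM1, which binds promoter elements called cell cycle genes homology regions (CHR), often together with NF-Y at CCAAT boxes. In resting cells MuvB with the pocket proteins p107 or p130 represses the same promoters.

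The groups were chosen on measured values, and each counts as 1 sample, so no difference below carries a test. The score genes are left out of every comparison. A difference is the mean log2(RPM + 1) of upper-scoring minus lower-scoring cells, taken within each set and averaged over sets A and B with equal weight. A gene counted as higher or lower when that difference reached 1 in size and had the same sign in both sets. RPM medians and ranges, and counts of cells, pool both sets unless a set is named. Set A gave 5 of the 35 upper-scoring and 11 of the 36 lower-scoring cells, so these pooled values also mix the sets.

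The name "resting" did not hold for the lower-scoring cells. All 36 had Top2a above 1 RPM, and 28 of them had reads on all 7 score genes. Top2a, the topoisomerase that untangles sister chromatids, ran from 45.99 RPM through a median of 135.8 to 311 in upper-scoring cells, and from 1.53 through 54.7 to 191 in the others. Mki67, the proliferation antigen, had medians of 40.997 and 21.8 RPM, and 33 of the 36 lower-scoring cells were above 1 RPM. Cdk1, the kinase that starts mitosis, had medians of 11.3 and 6.92 RPM, and Ccnb1, its cyclin B1 partner, 17.1 and 10.4 RPM. The ranges of all 4 genes overlapped between the groups, which are therefore named here by score and not as cycling and resting. The score ran without a gap through the cutting point, where 21 cells lay within 0.25 of it. The nearest cell above it had 4.69, and the nearest in the rest had 4.68, followed by 4.64. The 3 lowest scores, 2.50, 2.60 and 2.61, stood apart from the next at 3.24, and all 3 cells belonged to set A.

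**Figure D1:**
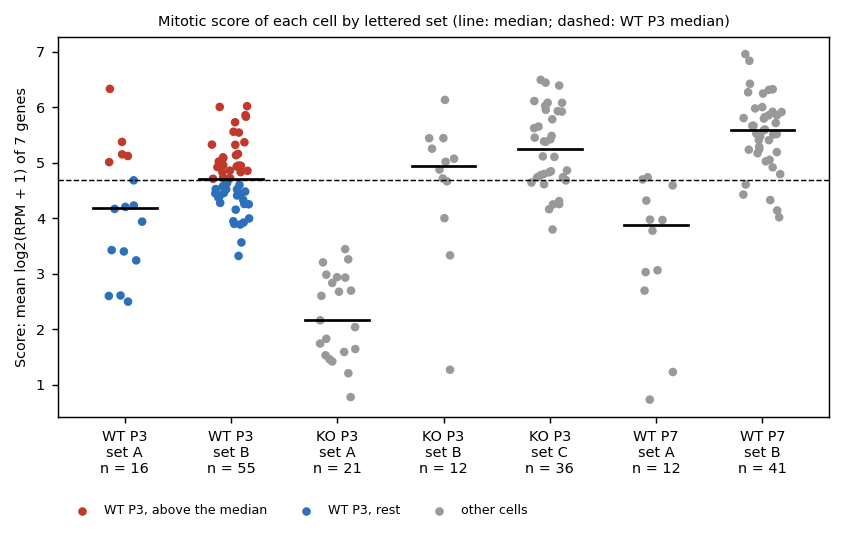
Score of each of the 193 cells (y axis, mean log2(RPM + 1) of the 7 genes) by lettered set (x axis), with the median of each set as a black line and the WT P3 median as a dashed line. WT P3 set B lay between 3.32 and 6.02, set A reached down to 2.50, and KO set A lay wholly below the dashed line.

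Read depth overlapped between the groups, but its medians differed within the sets. Recovered reads per cell ranged from 251530 to 10663507, with medians of 4242912 in upper-scoring and 4607264 in lower-scoring cells, and 25424 to 1201355 reads per cell fell on genes. The median number of genes above 1 RPM was 7046 in upper-scoring and 7077.5 in lower-scoring cells. Within set A, upper-scoring cells had fewer reads on genes (median 407423 beside 588161) and fewer genes above 1 RPM (6740 beside 7619). Within set B they had more of both (523033.5 beside 429702, and 7197.5 beside 6921). The part of depth in the results was not tested. Reads on genes per spike-in read, a measure of RNA content, had medians of 14.6 and 12.8 over all cells, 9.67 and 10.4 in set A, and 15.7 and 13.4 in set B, and its part in the results was not tested. Ddx4 or Dazl, which mark germ cells, were above 1 RPM in all 71 cells. Clu, a Sertoli cell gene, exceeded 100 RPM in 5 cells of set B, 4 upper-scoring and 1 lower-scoring (129.9 to 515.2 RPM), and was at most 21.3 RPM in the others. The 12 Sertoli markers summed to between 0 and 773.6 RPM in upper-scoring cells (median 2.38) and between 0 and 345.6 in the others (median 2.29), and Fshr was at 0 in all lower-scoring cells. The part of Sertoli cell RNA in the results was not tested. Myoid and stromal markers summed to between 0 and 76.8 RPM in upper-scoring cells (median 1.23) and between 0 and 360.5 in the others (median 1.19). The part of myoid and stromal RNA was not tested either. Markers of Leydig cells summed to a median of 0.297 RPM (0 to 9.81) in upper-scoring and 0 RPM (0 to 11.1) in the other cells. Cyp11a1 and Lhcgr were at 0 in all 71 cells. Cyp17a1 and Nr5a1 were at 0 in all lower-scoring cells but not in all upper-scoring cells. The level of the Leydig markers followed the score with Spearman's rho of 0.50 over the cells (0.69 in set A, 0.43 in set B). Of 5 in the table only Star was measured, at 0.34. The part of Leydig cell RNA was not tested.

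Of the 4740 genes whose mean level reached 2, 70 (1.48%) were higher and 28 (0.591%) were lower in upper-scoring cells. The median difference of these genes was 0.00, with -0.14 in set A and 0.14 in set B, and 47.95% of them had the same sign in both sets. Set A holds 5 upper-scoring cells, and its differences spread more widely over genes (SD over genes 0.73) than those of set B (0.31). In set B alone 35 genes were higher and 7 lower. Of these, 16 were among the 70 higher genes and 0 among the 28 lower genes. Of the 28, 14 reached 0.5 in set B, and Tspan8 alone reached 1, but its mean level in that set fell short of 2. The mean over all cells without weighting the sets gave 37 higher and 3 lower genes.

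Promoters of 4 higher genes show the elements described above. They are the 150 bases before a RefSeq start site (GRCm38.p6), with each match to TTTGAA (the CHR) or CCAAT, on either strand, in capitals. Where RefSeq gives several starts, the one with the highest coordinate is shown.
Prc1 (chr7:80294326-80294475, plus strand): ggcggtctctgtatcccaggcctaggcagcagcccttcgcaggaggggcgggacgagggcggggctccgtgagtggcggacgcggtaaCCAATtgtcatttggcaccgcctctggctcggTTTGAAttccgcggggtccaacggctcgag
Cdc20 (chr4:118437344-118437493, minus strand): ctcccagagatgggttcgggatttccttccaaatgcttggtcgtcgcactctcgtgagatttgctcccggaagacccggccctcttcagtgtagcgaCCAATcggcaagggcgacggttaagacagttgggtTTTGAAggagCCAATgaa
Ckap2l (chr2:129297213-129297362, minus strand): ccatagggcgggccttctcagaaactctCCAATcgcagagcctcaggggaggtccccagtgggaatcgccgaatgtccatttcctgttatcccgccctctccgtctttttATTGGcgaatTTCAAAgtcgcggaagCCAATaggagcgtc
Ect2 (chr3:27153879-27154028, minus strand): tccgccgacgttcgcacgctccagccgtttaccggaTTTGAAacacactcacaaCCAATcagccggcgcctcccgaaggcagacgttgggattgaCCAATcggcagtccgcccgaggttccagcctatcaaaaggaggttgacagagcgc
The CHR match began 30 bases before the start in Prc1, 18 in Cdc20, 30 in Ckap2l (on the other strand, as TTCAAA) and 114 in Ect2.

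Over the window from 250 bases before to 50 after a start, TTTGAA on either strand stood in 50.5% of 103 promoters of the mitotic gene lists. The spindle, kinesin and cytokinesis list had it in 76.9% of 26 promoters, and the centromere and kinetochore list in 45.2% of 31. The share was 22.2% of 36 in the replication list, 14.2% of 3884 among genes whose mean level reached 2, and 20.2% over all 27025 genes of the promoter table. Among the 70 higher genes it was 40.7% of 54 with a promoter in the table, among those outside the cell cycle lists 16.1% of 31, and among the lower genes 16.7% of 24. CCAAT on either strand stood in 62.1% of the mitotic promoters, 44.3% of those of genes whose mean level reached 2, and 41.1% of all. The E2F letters TTTCCCG or TTTGGCG, on either strand, stood in 58.3% of replication promoters, 17.5% of mitotic promoters, 11.9% of those of genes whose mean level reached 2, and 5.55% of all. None of these strings contains another. A match describes the letters of a window and is not evidence of binding.

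Of the 70 higher genes, 43 belonged to none of the 12 cell cycle lists. Of 118 measured members of the mitotic lists (mean level of at least 0.5), 100 had a difference above 0, 87 of them in both sets, and 27 (22.9%) of the mitotic members counted as higher and 0 as lower. Among all 9812 genes at that level, 93 (0.948%) counted as higher, 46.1% had a difference above 0, and 26.5% lay above 0 in both sets. A further 22.3% lay below 0 in both sets. The counts of the other lists below are to be read beside these shares, and some lie near them. The median difference of the members was 0.60 (0.79 in set A, 0.42 in set B) beside -0.04 over all genes at that level. With a call of at least 0.5 in each set, chosen after seeing the data, 37 members were higher, beside 2.28% of all genes at that level and 3.33% of those whose mean level reached 2. These genes share the cell cycle phase with the score genes, so a shift in the same direction follows closely from how the groups were chosen.

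**Figure D2:**
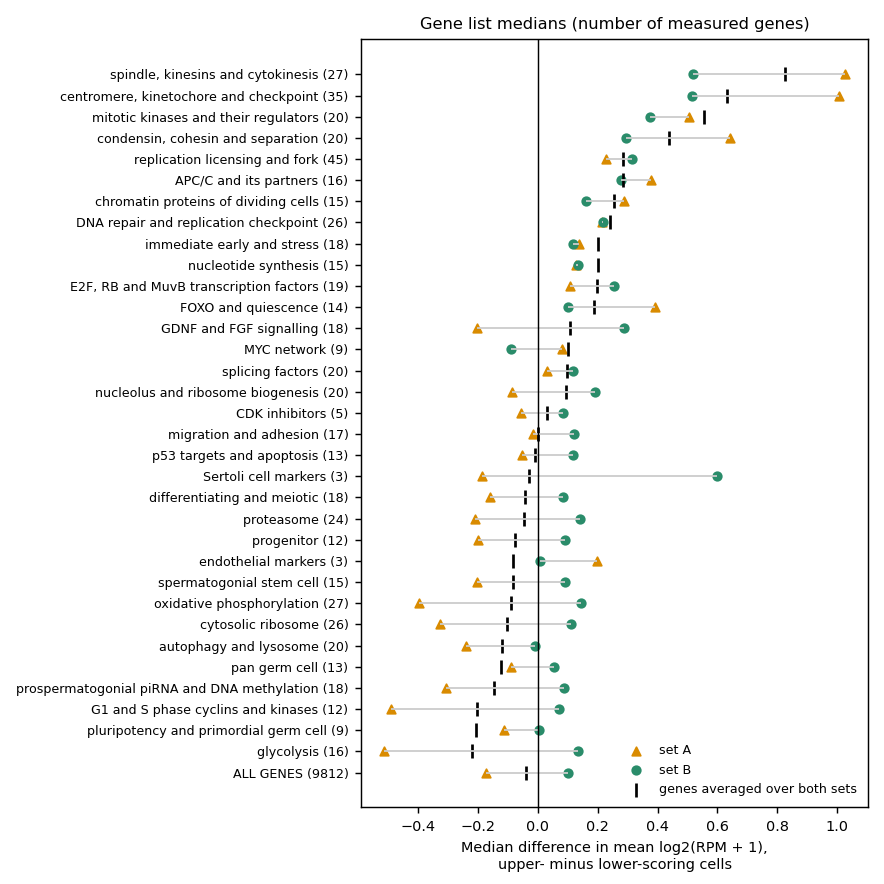
Median difference in mean log2(RPM + 1) between upper- and lower-scoring cells (x axis) for each gene list with 3 or more measured genes and for all 9812 genes, with set A as triangles, set B as circles and the value from both sets as a bar. The spindle list stood highest at 0.83 and the centromere list next at 0.63, while most lists of metabolism and cell state had opposite signs in the sets.

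Genes of the spindle, the kinesin motors and cytokinesis were highest as a group. Of 27 measured, 25 lay above 0 and 12 counted as higher, with a median of 0.83 (1.03 in set A, 0.52 in set B). Prc1 (ENSMUSG00000038943.16, protein-coding, chromosome 7, 80294450 to 80316259, plus strand), which bundles the microtubules of the spindle midzone, ran from 0 through a median of 25.1 to 103 RPM in upper-scoring cells. In lower-scoring cells it ran from 0 through 8.68 to 50.3 RPM. The difference was 1.53, with 1.92 in set A and 1.13 in set B. The ranges overlapped, but 29 of 35 upper-scoring cells lay above the lower-scoring median, and 4 of 36 lower-scoring cells lay above the upper-scoring median.

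Ect2, the exchange factor that turns on RhoA at the cleavage furrow, had medians of 25.5 and 10.6 RPM and a difference of 1.55, of which set A gave 2.55 and set B 0.54. Racgap1, a subunit of the centralspindlin complex, differed by 1.30, and Kif23, the motor of that complex, by 1.10 (1.13 and 1.07). Aspm, a spindle pole protein, differed by 1.07 (1.01 and 1.14), and Kif18a, a motor that shortens kinetochore microtubules, by 1.07 (1.03 and 1.10). Kif20a, Kif20b, Kif4 and Kif22, which are also kinesins, differed by 1.24, 1.13, 1.08 and 1.05. Kif23, Aspm and Kif18a had like values in both sets. Ckap2l, a spindle protein, ran from 0.242 through 7.43 to 62.0 RPM in upper-scoring cells and from 0 through 3.35 to 19.97 in the others, a difference of 1.49. Hmmr, a microtubule-binding spindle protein, differed by 1.55, but set B gave only 0.14 beside 2.96 in set A. The 2 members below 0 were Tubb5, a beta-tubulin (-0.04), and Nusap1, which went opposite ways in set A (-1.29) and set B (1.10).

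Genes of the centromere, the kinetochore and its checkpoint came next, with 32 of 35 measured members above 0 and 11 counted as higher. Their median was 0.63 (1.01 in set A, 0.52 in set B). Casc5, listed today as Knl1 (ENSMUSG00000027326.13, chromosome 2, 119047119 to 119105501, plus strand), is the kinetochore scaffold that recruits Bub1. It ran from 0 through 9.81 to 149 RPM in upper-scoring cells and from 0 through 2.57 to 31.9 in lower-scoring cells, a difference of 2.06 (2.99 in set A, 1.13 in set B). Sgol2, now Sgo2a (ENSMUSG00000026039.9, chromosome 1, 57995971 to 58025899, plus strand), protects cohesin at centromeres. Its medians were 30.7 and 11.9 RPM and its difference 2.11. In set A its 5 upper-scoring cells lay between 28.2 and 80.1 RPM, and the 11 lower-scoring cells between 0 and 39.1 with a median of 1.44. Set B gave a smaller difference of 0.75.

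Ska1, which couples kinetochores to microtubule ends, had medians of 3.55 and 0.676 RPM and was above 1 RPM in 29 of 35 upper-scoring and 17 of 36 lower-scoring cells, a difference of 1.87. Cenpi, of the inner kinetochore, differed by 1.60 with medians of 4.97 and 0.767 RPM. Ndc80, the main microtubule contact of the kinetochore, differed by 1.31, and Bub1b, the checkpoint protein BubR1, by 1.28. Sgol1, which guards centromeric cohesion in mitosis, differed by 1.25 and Birc5, the survivin subunit of the chromosomal passenger complex, by 1.06. Cenpq, Cenpn and Cenpf completed the 11, between 1.03 and 1.16. The low members were Hjurp (-0.05), Cenpl (-0.08) and Mad1l1 (-0.16), each with opposite signs in the sets.

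Among mitotic kinases and their regulators, 18 of 20 measured members lay above 0 and 2 counted as higher (median 0.56). Tpx2 (ENSMUSG00000027469.16, chromosome 2, 152847964 to 152895321, plus strand), which activates Aurora A and seeds spindle microtubules, ran from 2.83 through 19.6 to 73.0 RPM in upper-scoring cells. In lower-scoring cells it ran from 0 through 5.11 to 37.5 RPM, and the difference of 1.59 was close in both sets (1.65 and 1.53). Of the upper-scoring cells 31 lay above the lower-scoring median. Pbk, a mitotic kinase, had medians of 51.8 and 25.8 RPM and a difference of 1.55 (2.45 and 0.64). Aurka, which encodes Aurora A, differed by 0.97 (0.89 and 1.05), and Melk, a kinase of dividing cells, by 0.98. Cdc25b, a phosphatase that activates Cdk1, had -0.91, from -1.92 in set A and 0.10 in set B.

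**Figure D3:**
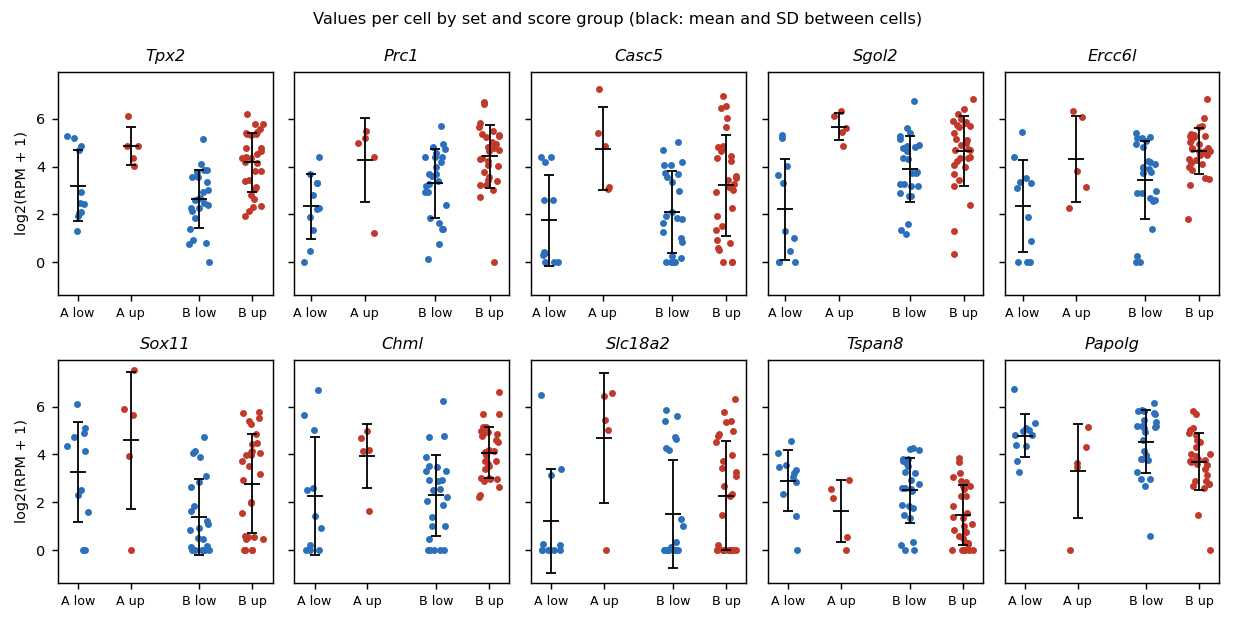
log2(RPM + 1) of 10 genes in each WT P3 cell (y axis), by set and score group (x axis: A or B, low for lower-scoring and up for upper-scoring), with the mean and SD between cells in black. Tpx2, Prc1 and Casc5 were higher in upper-scoring cells of both sets with overlapping ranges, and Tspan8 and Papolg were lower.

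The machinery of chromosome structure and mitotic exit differed less. Condensin, cohesin and separation genes had a median of 0.44 with 15 of 20 above 0, and 1 counted as higher, Esco2, a cohesin acetyltransferase (1.14, with 2.03 in set A and 0.24 in set B). Ncapg, a condensin I subunit, differed by 0.96 and Smc1a, a cohesin subunit, by 0.84. Stag2, another cohesin subunit, had -1.16, from -2.60 in set A and 0.29 in set B. The anaphase-promoting complex (APC/C) and its partners had a median of 0.28 with 10 of 16 above 0. Its activator Cdc20 was the only one counted as higher, running from 0 through 5.09 to 26.4 RPM in upper-scoring and from 0 through 1.61 to 16.3 in lower-scoring cells (difference 1.37, with 2.09 and 0.65). Fzr1, the activator Cdh1 of late mitosis and G1, had -0.47, from -1.39 in set A and 0.46 in set B. Among chromatin proteins of dividing cells, 12 of 15 lay above 0 (median 0.25), and Tmpo, a lamina protein, counted as higher (1.09).

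Replication genes had smaller differences than the spindle and centromere lists, and about those of the anaphase-promoting complex list, and these gaps were not tested. Of 45 measured members of the licensing and fork list, 36 lay above 0, 29 of them in both sets, but the median was 0.29 (0.23 and 0.32) and 0 counted as higher or lower. The highest were the origin licensing factors Cdc6 at 0.97 (1.31 and 0.63) and Orc1 at 0.92 (1.06 and 0.78), which along with Cdc45 were at least 0.5 in each set. The helicase subunits Mcm2 to Mcm7 ranged from -0.26 (Mcm4) to 0.65 (Mcm3). Pcna, the sliding clamp, was at 0.21. In nucleotide synthesis, 11 of 15 lay above 0 with a median of 0.20. Rrm1, the large subunit of ribonucleotide reductase, had medians of 72.7 and 38.1 RPM and 0.99 (1.17 and 0.82), Shmt2, of one-carbon metabolism, 0.79, and Ctps, which makes CTP, 0.73. DNA repair and checkpoint genes had a median of 0.24 with 17 of 26 above 0 and 0 calls.

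Of the regulators that drive these waves, Foxm1 (ENSMUSG00000001517.14, chromosome 6, 128362967 to 128376146, plus strand) ran from 0 through 5.73 to 66.3 RPM in upper-scoring and from 0 through 3.18 to 18.3 in lower-scoring cells. The difference was 1.13 (1.71 and 0.55). E2f8, a repressor of the E2F family, was at 1.04 (1.74 and 0.34), and Mybl2, which encodes B-MYB, at 0.63 (0.96 and 0.30). The pocket protein genes Rbl2 (p130) and Rbl1 (p107) were at 0.82 and -0.24, and Lin54, the MuvB subunit that contacts the CHR, at -0.69 (-1.64 and 0.25). The whole list of 19 measured E2F, RB and MuvB genes had a median of 0.20, with 11 above 0 and 2 counted as higher. Cyclins and kinases of G1 and S phase had a median of -0.20, with 4 of 12 above 0 and 0 counted. Ccne1, cyclin E1, was at 0.81 and Ccnd3, cyclin D3, at -0.41. Of 5 measured CDK inhibitors, 3 lay above 0 (median 0.03). Cdkn1c (p57) was at -0.48 (-0.77 and -0.18), with medians of 7.45 and 10.3 RPM, and Cdkn1b (p27) at 0.22.

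**Figure D4:**
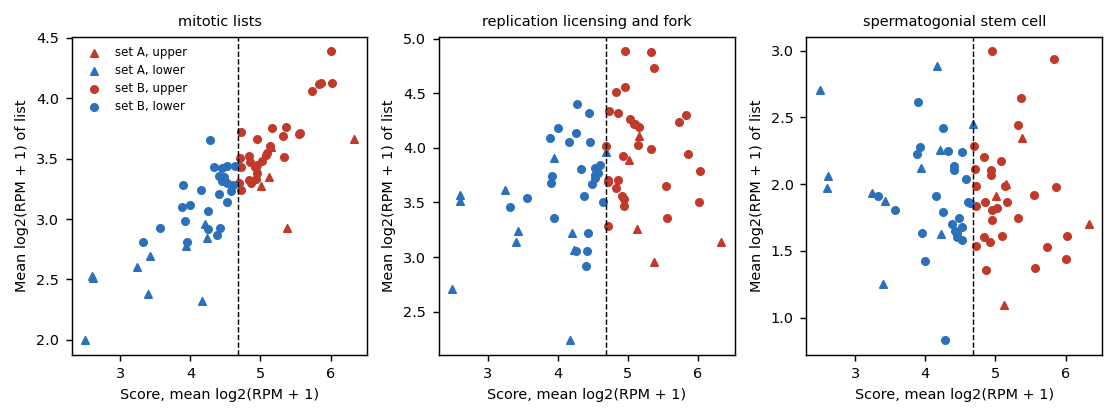
Mean log2(RPM + 1) of the mitotic, replication and stem cell lists in each WT P3 cell (y axes) against its score (x axes), with set A as triangles and set B as circles. Mitotic levels climbed along the score, from a median of 2.87 in the 23 lowest-scoring cells to 3.66 in the 23 highest, while stem cell levels were 1.93 and 1.87.

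Cell by cell, the level of the mitotic lists followed the score with Spearman's rho of 0.84 over 71 cells (0.86 in the 16 cells of set A, 0.85 in the 55 of set B). The replication list gave 0.33 (0.06 in set A, 0.29 in set B), and the stem cell list -0.12. These values describe cells that share a library scale, and genes of a list share the score's cell cycle phase. The median level of the replication list was 3.55 in the 23 lowest-scoring cells, 3.72 in the middle 25 and 4.03 in the 23 highest.

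**Figure D5:**
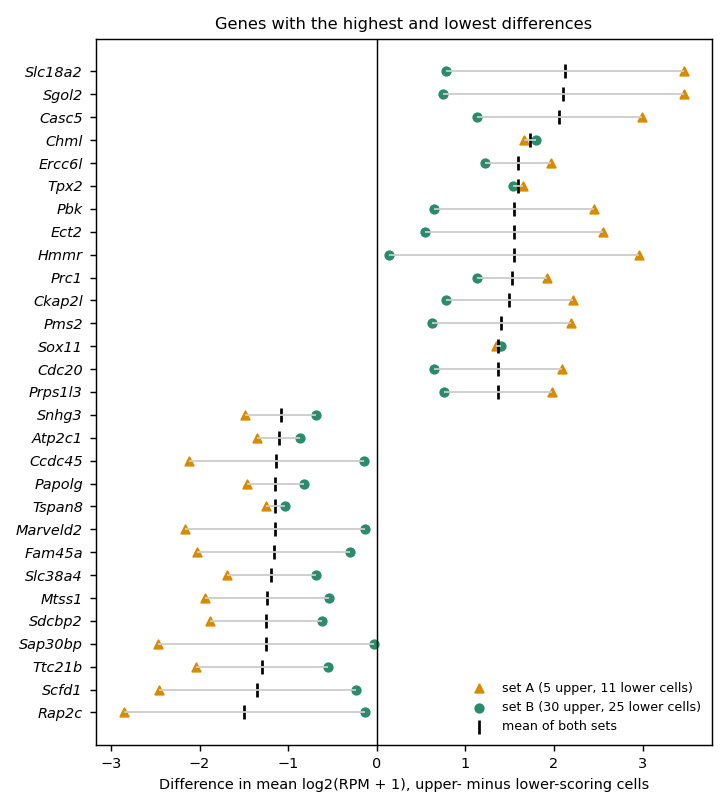
Genes with the highest and lowest differences in mean log2(RPM + 1), upper- minus lower-scoring cells (x axis), among genes whose mean level reached 2 and whose sign was shared by the sets, with set A as triangles, set B as circles and their mean as a bar. In 6 of the lower genes set B lay between -0.30 and -0.03, and Tspan8, Chml, Tpx2 and Sox11 have like values in both sets.

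Of the 15 genes with the highest differences, 9 belong to the mitotic lists. Ercc6l, outside the lists, encodes PICH, a translocase on the DNA threads between separating chromatids. It ran from 2.45 through 24.4 to 113 RPM in upper-scoring and from 0 through 9.82 to 41.96 in lower-scoring cells, a difference of 1.59 (1.97 and 1.22). Arhgap11a, a RhoA GTPase-activating protein, differed by 1.29 (1.94 and 0.64).

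The genes that follow are not known chiefly for the cell cycle. Chml (ENSMUSG00000078185.3, chromosome 1, 175682237 to 175692901, minus strand), a Rab escort protein gene that overlaps Opn3 on the same strand, was above 1 RPM in 35 of 35 upper-scoring and 25 of 36 lower-scoring cells. Its medians were 16.9 and 4.15 RPM and its difference 1.73, with 1.66 in set A and 1.79 in set B. Sox11 (ENSMUSG00000063632.6, chromosome 12, 27334264 to 27342574, minus strand), a transcription factor gene of progenitor cells in many tissues, ran from 0 through 12.1 to 184 RPM in upper-scoring cells. In the others it ran from 0 through 1.68 to 67.1 RPM, a difference of 1.37 (1.34 and 1.40). Chml and Sox11 differed to a like extent in both sets, although cells without Sox11 reads stood in both score groups.

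Slc18a2, the vesicular monoamine transporter VMAT2, had the highest difference of all, 2.13, but 3.47 came from set A and 0.78 from set B. It was above 1 RPM in 21 of 35 upper-scoring and 12 of 36 lower-scoring cells, with medians of 5.50 and 0 RPM. Pms2, a mismatch repair gene that overlaps Rsph10b, was at 1.41, and Prps1l3, a phosphoribosyl pyrophosphate synthetase gene that overlaps Mipol1, at 1.37. Reads from overlapping genes may not be told apart, since no source used here gives the strand setting. Gca, Gtf3c4, Tmx1, Cdr2 and Nefm were at 1.31, 1.28, 1.27, 1.23 and 1.18, and in the last 4 set B gave at most 0.46. Lifr, the receptor subunit for leukemia inhibitory factor, was named after its values were seen: medians of 16.6 and 4.70 RPM, a difference of 1.13 (0.64 in set A, 1.63 in set B).

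Among the lower genes, Tspan8 (ENSMUSG00000034127.15, chromosome 10, 115816832 to 115849893, plus strand) had like values in both sets, -1.25 and -1.04. This tetraspanin has been used to sort spermatogonia rich in stem cells. It ran from 0 through 1.55 to 13.6 RPM in upper-scoring cells and from 0 through 6.41 to 22.97 in lower-scoring cells. The ranges overlapped, yet 6 of 35 upper-scoring cells lay above the lower-scoring median and 30 of 36 lower-scoring cells above the upper-scoring one. Papolg, a nuclear poly(A) polymerase, had medians of 12.3 and 30.1 RPM and a difference of -1.15 (-1.46 and -0.83). Atp2c1, a Golgi calcium pump, was at -1.11 (-1.35 and -0.87), with medians of 9.39 and 18.9 RPM.

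The other lower genes had larger differences in set A than in set B. Rap2c, a Ras-related GTPase, was at -1.50 from -2.86 in set A and -0.14 in set B, and Scfd1, a secretory pathway protein, at -1.35 from -2.46 and -0.24. Sap30bp, Marveld2, Ccdc45 (now Cep95) and Fam45a had set B values between -0.30 and -0.03. Ttc21b, Sdcbp2, Mtss1, Slc38a4 and Snhg3, which overlaps Rcc1, had differences between -1.30 and -1.09, with set B values between -0.69 and -0.54. No gene list other than those of the cell cycle held more than 1 gene counted in either direction.

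Lists of germ cell state differed little between the score groups. Spermatogonial stem cell genes had a median of -0.08 (-0.20 and 0.09), with 6 of 15 above 0 and Tspan8 alone counted. Id4, the gene of the reporter, was at -0.19 (-0.48 and 0.09), with medians of 11.8 and 11.9 RPM. Gfra1, the GDNF co-receptor, was at 0.19 with medians of 18.6 and 15.5 RPM, and Ret, its signalling partner, at -0.42 with 14.5 and 25.7 RPM. Etv5, a GDNF-responsive factor, was at 0.33. Progenitor genes had a median of -0.08, with Sall4 at -0.69 (-1.31 and -0.06), and differentiating and meiotic genes -0.04. In the latter list Stra8, the gene switched on by retinoic acid, was at -0.77 (-1.31 and -0.23), and Kit, the receptor of differentiating spermatogonia, at 0.82 with opposite signs in the sets (1.74 and -0.10).

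Prospermatogonial genes of the piRNA pathway and DNA methylation had a median of -0.15 (-0.31 and 0.09), with 5 of 18 above 0. Dnmt3l, the cofactor of germline DNA methylation, was above 1 RPM in 7 of 35 upper-scoring and 16 of 36 lower-scoring cells, with a difference of -0.66 (-1.18 and -0.15). Pan germ cell genes had -0.12, and Elavl2, an RNA-binding protein gene, alone counted as higher (1.04, with 1.35 and 0.72). Rhox10 was at -0.25 (-0.38 and -0.12), with medians of 2.15 and 2.76 RPM. Pluripotency genes had -0.21, with Klf4 at 0.63 (0.57 and 0.68).

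Signalling and metabolic lists had medians between -0.22 and 0.20. GDNF and FGF signalling had 0.11, in which Spry1, a feedback inhibitor of receptor tyrosine kinases, was at 0.75 (0.78 and 0.73) with medians of 2.84 and 0.192 RPM. Immediate early and stress genes had 0.20, with 12 of 18 above 0, 10 of them in both sets, and Hspa1b, an inducible HSP70 chaperone, at 1.42 (1.91 and 0.94). The FOXO and quiescence list had 0.19 (0.39 and 0.10), with 9 of 14 above 0, 6 of them in both sets, and 3 below 0 in both. Its members Arrdc3 and Klf6 were at 0.88 and 0.85 and Txnip at -0.47. Glycolysis (-0.22), oxidative phosphorylation (-0.09) and the cytosolic ribosome (-0.10) were each below 0 in set A and above 0 in set B, as was the median of all genes. Autophagy and lysosome genes had -0.12 (-0.24 and -0.01), p53 targets -0.01, the MYC network 0.10, nucleolar genes 0.09, splicing factors 0.10, the proteasome -0.05, and migration and adhesion 0.00.

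Other WT and KO cells were split at the median score of each lettered set, to place their values side by side. WT P3 cells were instead cut once, at the median of all 71, so the cuts are not alike. The mitotic lists had medians of 0.95 and 0.43 in WT P7 sets A and B, and of 0.36, 0.62 and 0.68 in KO P3 sets A, B and C, beside 0.60 in WT P3. All genes whose mean level reached 0.5 had medians of 0.25 and 0.06 in the P7 sets. In the KO sets these were 0.20, 0.05 and 0.11, beside -0.04 in WT P3. Tpx2 was at 1.78 and 1.08 in the P7 sets and at 1.40, 1.24 and 2.35 in the KO sets, above 0 in each of the 5. Casc5 was likewise above 0 in all 5, between 0.36 and 2.02. Sox11 was at 1.51 and 1.52 at P7, and at -0.26, 0.72 and 0.87 in the KO sets. Slc18a2 ranged from -1.26 to 0.99 and Chml from -0.74 to 0.74, with both signs among the 5 sets. Tspan8 was at 0.21 and 0.13 at P7, and at 1.39, 0.78 and -0.81 in the KO sets. KO set A had no cell above the WT P3 median score, and WT P7 set B had 36 of 41. The split within each set therefore separates cells at other score levels there.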

How the data were processed

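The authors deposited 1 table of 19642 rows and 193 cells, named as TPM, which holds RPM: within a cell nearly all values the authors deposited were whole multiples of 1 step (99.999% of values on average within 0.001 RPM, lowest cell 99.98%), so they hold no gene length term, and reads were recovered from the steps. Per the labels' protocols, cDNA was made on a Fluidigm C1 system with SMARTer chemistry and ERCC spike-ins, and libraries with Nextera XT, without molecular identifiers named. Tools named in the submitters' processing notes are STAR 2.3.0 and HTSeq 0.6.1, with the build mm10 and no roles. No source used here gives the annotation or the strand setting. The plan expected TPM, and its measures were kept for RPM. The table's 84 ERCC rows and Rn45s were kept out, which left 19557 genes. Reads on genes were 7.20% to 16.6% of the total per cell.

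Values became log2(RPM + 1), a scale that understates changes of genes with low values. As each group is 1 sample and the labels name no animal, no p-value, standard error or count test was computed, and doublets were not called. No identical columns were found. Named genes were the 15 highest and 15 lowest differences, the 12 highest outside the cell cycle lists, at most 4 members at either end of each list, Id4, Rhox10 and the score genes, without predicted genes. Of these, 2 genes go unreported here. Other list members given with values, and Lifr, Clu, Kit, Ddx4, Dazl and Fshr, lie outside this rule and were chosen after their values were seen. The groups and the 37 gene lists were chosen with earlier results of these data known. Of 684 list entries 8 had no match, with older symbols matched through RefSeq synonyms. Some lists share members. Gene positions are from GENCODE M21 and promoters from RefSeq, both GRCm38 like mm10. The scripts (Python 3.11.15, pandas 2.3.3, numpy 2.4.6) were tested on simulated data. Alternatives covered the pseudocount, floor, scaling, thinning, weighting of sets, the cutting point and the score.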

Additional observations from a re-analysis of the deposited data

Results flagged for a closer look

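Of 44 named and called genes, 12 had 1 sign in both WT P3 sets and the opposite sign in both WT P7 sets. The same held for 1 of 15 lists with 1 direction in WT P3. WT P3 cells were cut at the median score of both sets together, and each P7 set at its own median, so the cuts are not alike. Those 12 were 27.3% of the 44. The share was 28.3% of all 152 called genes whose mean level reached 0.5, and 22.2% of the 4790 genes at that level with a shared sign in the WT P3 sets. The difference between ages was not tested in any of them. Of genes whose mean level reached 2, 66.0% lay above 0 in P7 set A and 58.2% in set B, with medians of 0.34 and 0.08. For a gene lower in WT P3, the opposite sign is therefore the sign of most genes in the P7 sets. Rap2c was at -1.50 in WT P3, and at 2.43 and 0.99 in WT P7 sets A and B. Of the other lower genes, Papolg was at -1.15 beside 1.47 and 0.36, and Tspan8 at -1.15 beside 0.21 and 0.13. Lifr was at 1.13 beside -0.63 and -0.70. The others lower in upper-scoring P3 cells were Sdcbp2 (-1.25), Slc38a4 (-1.19), Fam45a (-1.16) and Ccdc45 (-1.13). The others higher were Hspa1b (1.42), Pms2 (1.41), Gtf3c4 (1.28) and Tmpo (1.09). The autophagy and lysosome list had a median of -0.12 in WT P3 (-0.24 in set A, -0.01 in set B). Its medians in P7 sets A and B were 0.16 and 0.03, below those of all genes there. For all genes whose mean level reached 0.5, the medians were -0.17 and 0.10 in the P3 sets, and 0.25 and 0.06 in the P7 sets. WT P7 set A holds 12 cells, 6 in each score group.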

How the results depend on the processing

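The mitotic list median stayed above 0 in all alternatives run. It was 0.60 in the reported setting and 0.28 with a pseudocount of 10. The counts of 70 higher and 28 lower genes moved more. They became 3 and 0 with a pseudocount of 10 (the call needs a difference of 1, and no test was run), 239 and 129 with 0.1, 11 and 3 with a floor of 4, 37 and 3 without weighting the sets, 35 and 7 without WT P3 set A, 302 and 476 without set B, 112 and 44 between the 23 highest and 23 lowest scores, and 158 and 50 when 0.5 was asked in each set (chosen after seeing the data). Lower genes numbered 59 without a floor, 18 (beside 75 higher) when scaled to stably detected genes, 56 (98 higher) with reads thinned to 46000 on genes, 97 (80 higher) by the log2 ratio of means, 14 (69 higher) with the cutting point within each set, 49 (53 higher) with the score scaled to reads on genes, and 46 (61 higher) with a score of 4 genes. The genes changed too, also where the totals were alike. Of the 70 higher and 28 lower genes, the cutting point within each set kept 38 and 6. The score of 4 genes kept 27 and 10, with 16 cells changing score group, and thinning kept 42 and 18. Scaling to reads on genes kept 67 and 24. Without set A the median of all genes was 0.14, and without set B -0.12. Without the 5 cells of high Clu 58 were higher and 35 lower, with a mitotic median of 0.58. Without the 3 lowest-scoring cells these were 78, 26 and 0.52. Both were chosen after seeing the data. The cause of these shifts was not tested. At depths down to 25424 reads on genes, 1 read can decide whether a gene is seen in a cell. No paired analysis was possible because replicate numbers only name cells and the labels name no animals.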
